A study of Mus musculus with 2148 samples.

Results

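H19, Igf2, Hmga2, Igf2bp1, Igf2bp2, Igf2bp3, Lin28b, Dlk1, Meg3 and Peg3 are growth genes of the fetus, listed by symbol and read in single thymic epithelial cells of newborn and adult mice. The 10 genes were chosen by their levels in the newborn against the adult sorts in earlier results of these same cells. Their newborn and adult levels are therefore given here as a description with no test, whereas the differences between sorts and between genotypes were tested. Those tests use some of the same newborn and adult levels, so the choice of the genes bears on them as well. All 10 symbols were found among the 48437 genes of the count table. The newborn cells were the wild-type cortical cells (cTEC) and the medullary cells with low or high MHC class II (mTEClo and mTEChi) of C57BL/6 mice 1 day old, whose sex is given as unknown. The adult wild-type cells were mTEChi of 4, 5 and 6 week old mice, mTEClo of 4, 5 and 8 week old mice and cTEC of 6 week old mice, all male but for 1 female set of mTEChi at 4 weeks. The Aire-KO cells were mTEChi and mTEClo of 5 week old males that lack Aire on the same C57BL/6 background, the only groups with a mutation. Sorting took CD45-depleted EpCAM+ cells, Ly51- for mTEC and Ly51+ for cTEC, so that MHC class II and Ly51 define the sorts and are no finding between them.

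Each cell had its own full-length total RNA library (RamDA-seq), and the cells came from 26 experimental batches. Cells are not replicates, and the cells of a group that shared age and sex were therefore summed to 1 pool, which gave 13 pools: 4 of adult wild-type mTEChi, 3 of adult wild-type mTEClo and 1 of each other group. Each of the 5 newborn batches (16 to 20) held all 3 sorts, with 11 to 40 cells of a sort, whereas no batch held newborn and adult cells. Age and batch therefore cannot be told apart, and neither batches nor pools are stated to be different animals, so p-values measure only the spread between these samples. Pools held 7990398 to 351545799 reads on genes and cells held 203010 to 1823784. Levels are given as CPM, reads per 1000000 reads on genes in the same pool, cell or batch. The smallest pool, adult wild-type mTEChi pool 2, held only 12 cells.

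The genes belong to a few connected systems. Igf2 encodes a fetal growth factor, and H19 is a noncoding RNA at the same imprinted locus, where the parental chromosomes express one gene or the other. Dlk1, a membrane relative of the Notch ligands, and Meg3, a noncoding RNA, share a second imprinted locus, and Peg3 is a paternally expressed zinc finger gene. Lin28b encodes an RNA-binding protein that blocks the maturation of let-7 microRNAs. The let-7 microRNAs rise as animals mature and repress mRNAs with sites for their seed, among them those of Hmga2, a chromatin protein of fetal cells, and of the IGF2BP family, which binds mRNAs including that of Igf2.

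In the GRCm38 annotation, H19 (ENSMUSG00000000031) lies at chr7:142575529-142578143 and Igf2 (ENSMUSG00000048583) at chr7:142650766-142666816, both on the minus strand. Dlk1 (ENSMUSG00000040856) lies at chr12:109452823-109463336 and Meg3 (ENSMUSG00000021268) at chr12:109541001-109571726, both on the plus strand. Peg3 (ENSMUSG00000002265) lies on the minus strand at chr7:6703892-6730431. Lin28b (ENSMUSG00000063804, chr10:45376620-45486395), Hmga2 (ENSMUSG00000056758, chr10:120361275-120476469), Igf2bp1 (ENSMUSG00000013415, chr11:95957163-96005940), Igf2bp2 (ENSMUSG00000033581, chr16:22059009-22163299) and Igf2bp3 (ENSMUSG00000029814, chr6:49085223-49214957) are also on the minus strand. Igf2bp3 shares 18.7% of its exon bases with Malsu1, and since the reads were counted without strand, reads of the 2 genes there cannot be told apart. Igf2, Hmga2 and Igf2bp1 share 98, 140 and 43 bp with a neighbour.

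The let-7 microRNAs are shown because LIN28B acts on them and because several of the genes carry their sites. The 9 mature RNAs of the family, from RefSeq on GRCm38.p6, are printed 5′ to 3′ with the seed, bases 2 to 8, in capitals, and all 9 hold the seed GAGGUAG.
let-7a-5p: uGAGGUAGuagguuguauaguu
let-7b-5p: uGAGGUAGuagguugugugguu
let-7c-5p: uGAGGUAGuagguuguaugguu
let-7d-5p: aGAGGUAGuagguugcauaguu
let-7e-5p: uGAGGUAGgagguuguauaguu
let-7f-5p: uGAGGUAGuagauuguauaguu
let-7g-5p: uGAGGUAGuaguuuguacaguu
let-7i-5p: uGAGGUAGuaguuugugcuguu
miR-98-5p: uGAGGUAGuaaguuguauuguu
The H19 transcript holds a microRNA of its own, miR-675, whose 2 arms lie at chr7:142577112-142577133 and chr7:142577078-142577099 on the minus strand and have other seeds.
miR-675-5p: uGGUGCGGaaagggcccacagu
miR-675-3p: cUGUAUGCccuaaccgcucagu
Mature microRNAs were not measured in these libraries.

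The letters CTACCTC, which pair with the let-7 seed, were searched on the mRNA strand of the longest protein-coding 3′ UTR of each gene. Hmga2, Lin28b and Igf2bp1 held 4 each, a number that only 12 of 20275 genes reached or passed, Igf2bp2, Igf2bp3 and Peg3 held 1 each, and Igf2 and Dlk1 held 0. At least 1 stood in 9.32% of the 20275 genes. Long 3′ UTRs hold more by length alone: among UTRs within 1.5-fold of the length of that of Hmga2 (3014 bp), 16.6% held at least 1 and 0.187% at least 4, and the same shares were 22.6% and 0.236% around Lin28b (4445 bp) and 31% and 0.429% around Igf2bp1 (6337 bp). The sites of the 3 genes and of the other IGF2BP genes are printed with 8 bases on each side, on the mRNA strand, with the letters searched in capitals. A match to these letters is a description and was not tested for function.
Hmga2 chr10:120364217-120364239: ttcaatttCTACCTCagcatcag
Hmga2 chr10:120362980-120363002: cctcaataCTACCTCtgaatgct
Hmga2 chr10:120362542-120362564: gcaaggaaCTACCTCcacacttc
Hmga2 chr10:120361684-120361706: acacactaCTACCTCttaagtcc
Lin28b chr10:45381015-45381037: cgggaagtCTACCTCatgcaagc
Lin28b chr10:45378641-45378663: gttagtaaCTACCTCtgagtttg
Lin28b chr10:45378469-45378491: gcacatggCTACCTCccagctac
Lin28b chr10:45377053-45377075: ggcaccgaCTACCTCttcaatca
Igf2bp1 chr11:95961771-95961793: gaagtaaaCTACCTCaaggtgtg
Igf2bp1 chr11:95959350-95959372: gctattaaCTACCTCagccccag
Igf2bp1 chr11:95958756-95958778: tggatgaaCTACCTCagtcctca
Igf2bp1 chr11:95958133-95958155: gttttaatCTACCTCttagcaaa
Igf2bp2 chr16:22059466-22059488: aataaaagCTACCTCaggtgttt
Igf2bp3 chr6:49086780-49086802: ttactcaaCTACCTCaggtattc

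The labels of the sorts were compared with marker lists. Genes of thymic epithelium summed to 1485.6 to 2959.3 CPM in every group. The cTEC list stood at 8954.3 CPM in newborn cTEC and 8522.0 in adult cTEC. In newborn mTEClo it stood at 3501.6, against at most 1154.1 in the adult wild-type mTEClo pools and 1364.9 in Aire-KO mTEClo. Aire, the regulator of tissue-restricted genes in the medulla, stood at 1469.3 CPM in newborn mTEChi, at 1109.7 to 1844.6 in the adult wild-type mTEChi pools and at 26.1 in Aire-KO mTEChi. Mesenchymal genes, where several of the 10 genes are also active, summed to 65 CPM in newborn cTEC, 144.9 in newborn mTEClo and 487.1 in newborn mTEChi, against 65.7 to 268.1 in adult mTEClo and 63.7 to 358.3 in adult mTEChi, with adult cTEC inside these ranges. Genes of blood cells summed to 827.3 CPM in newborn mTEChi and 718.9 to 1073.5 in adult mTEChi, to 162.8 in newborn and 477.6 in adult cTEC, and to 81.2 in newborn and 91.3 to 482.5 in adult mTEClo. Genes of cycling cells summed to 512.1, 879.9 and 464.8 CPM in newborn cTEC, mTEClo and mTEChi. The adult wild-type sums were 206.5 in cTEC, 10.9 to 20.6 in mTEClo and 115.4 to 570.3 in mTEChi. Aire-KO mTEClo stood at 50.3. No caller of doublets was run, since each cell was sorted into its own well.

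In the newborn cells, 9 of the 10 genes stood at least 2-fold above the adult wild-type mean in cTEC, 9 in mTEClo and 5 in mTEChi. Leaving out the genes under 1 CPM at both ages, the counts were 7 of 8, 9 of 10 and 5 of 10, and among all genes with that level 9.18%, 17.9% and 9.98% stood as far above. The choice of the genes used this contrast, and nothing is read from these counts. The differences within the list were large. The ratio in mTEClo ran from 1.38 for Peg3 to 2121.8 for H19, and in mTEChi Igf2 and Lin28b stood higher in the adult.

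**Figure D1:**
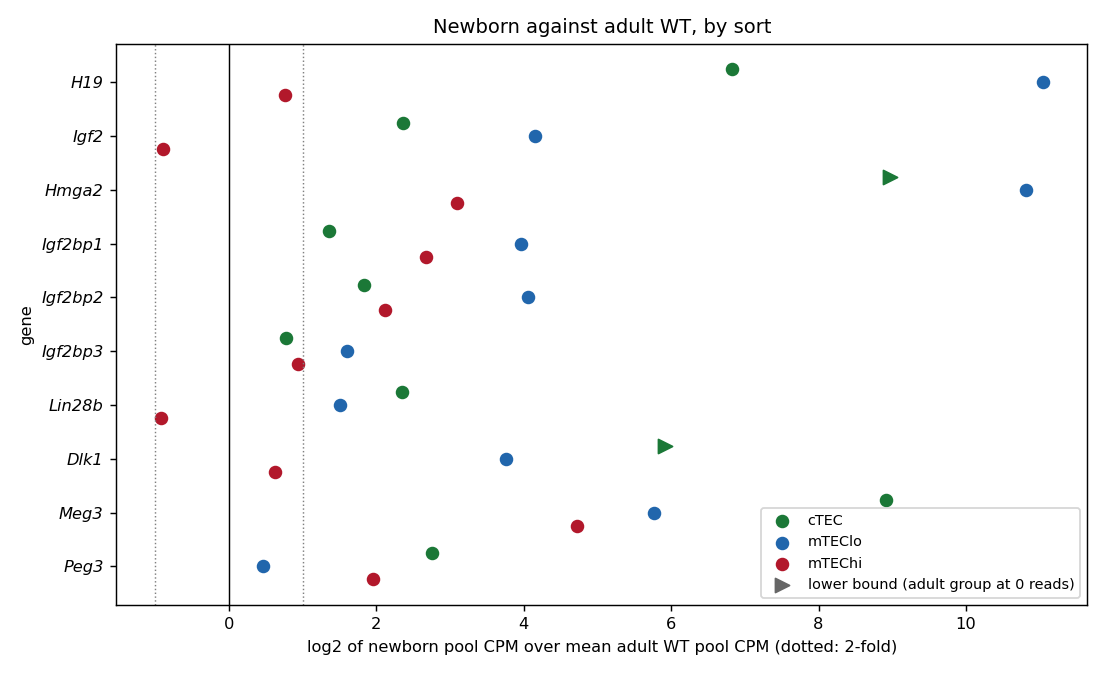
Ratio of newborn to adult wild-type level on a log2 axis for the 10 genes, with 1 symbol per sort; triangles are lower bounds where the adult pool held 0 reads, and dotted lines mark 2-fold. H19 in mTEClo lies at 11.05 and Hmga2 in cTEC at 8.97 or above, whereas Igf2 and Lin28b in mTEChi lie below 0.

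H19 was the gene with the largest ratio in mTEClo. It stood at 332.7, 177.2, 225.1, 146.2 and 70.7 CPM in the 5 newborn mTEClo batches, and at 0.151, 0.0834 and 0 CPM in the 3 adult mTEClo pools. In cTEC the newborn batches stood at 18.6, 110.8, 34.7, 35.7 and 21.7 CPM and the adult pool at 0.354. Neither sort had a newborn batch near an adult value. The pooled ratios were 2121.8-fold (165.8 against 0.0782 ± 0.0757 CPM, SD, n = 3 adult pools) and 113.3-fold (40.0 against 0.354), and the first grew to a log2 ratio of 11.96 from 11.05 without adult mTEClo pool 1, which held most of the few adult reads. The cTEC value was 6.18 on the log2 scale, from 6.82, without batch 17.

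In mTEChi the ages overlapped for H19. The newborn batches stood at 2.02, 36.9, 30.7, 54.6 and 82.3 CPM and the adult pools at 10.3, 32.7, 44.4 and 2.12. The pooled levels were 37.7 in the newborn and 22.4 ± 19.5 (SD, n = 4) in the adult, a ratio of 1.69. The reads sat in few cells: the top 5% of cells held 92.2% of the H19 reads of newborn mTEChi and 98.4% of those of adult mTEChi, against 43.7% in newborn mTEClo. In newborn mTEChi 88.2% of H19 reads came from the 58.5% of cells whose mesenchymal genes summed to 100 CPM or more. Without such cells at either age the log2 ratio of H19 was -1.52 in place of 0.76. The share of reads in such newborn mTEChi was 79.4% for Lin28b, 73.3% for Peg3, 69.7% for Igf2 and 57.8% for Dlk1. It was 53% for Igf2bp2, 46.1% for Igf2bp3, 27.9% for Hmga2, 23.6% for Igf2bp1 and 13.3% for Meg3. Over newborn mTEChi cells, Spearman's rho with the mesenchymal sum ran from -0.14 (Igf2bp3, Meg3) to 0.17 (H19). The part of mesenchymal RNA in the result was not tested.

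Igf2 was far lower than H19 per length in the newborn sorts. Per kilobase of exon, H19 stood at 16.3, 67.4 and 15.3 CPM in newborn cTEC, mTEClo and mTEChi and Igf2 at 0.0553, 0.428 and 0.381. Igf2 stood at 2.18, 0.485, 1.25, 4.54 and 3.14 CPM in the newborn mTEClo batches and at 0.213, 0.05 and 0.149 in the adult mTEClo pools, with a ratio of 17.8, and 4 of the 5 newborn batches lay above every adult batch, the highest of which reached 0.607. The adult mTEChi pools, at 3.74, 7.38, 1.58 and 3.52 CPM, overlapped the newborn mTEChi batches, at 2.42, 1.03, 3.31, 1.56 and 2.71, and the adult mean was 1.86-fold above the newborn level. In cTEC both ages stood under 1 CPM, at 0.316 and 0.0615. H19 was read in 64.7%, 77.4% and 49.7% of newborn cTEC, mTEClo and mTEChi and Igf2 in 10.1%, 14.5% and 11.1%.

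Igf2bp2, an mRNA-binding protein of the fetal IGF2BP family, was spread evenly over batches and cells, with 11.3% and 14.7% of its reads in the top 5% of newborn cTEC and mTEClo. Newborn cTEC batches stood at 105.5, 100.0, 118.9, 115.4 and 106.1 CPM and newborn mTEClo batches at 94.0, 123.2, 107.2, 100.1 and 99.9. The adult values were 30.5 CPM in cTEC and 6.59, 5.90 and 6.63 in the mTEClo pools. No newborn batch reached down to an adult value, and the ratios were 3.54 in cTEC, where the adult is 1 pool of 1 batch, and 16.7 in mTEClo. In mTEChi the newborn batches (34.2, 43.8, 35.4, 31.2 and 32.1 CPM) also lay above every adult pool (8.71, 5.63, 7.10 and 11.1 CPM), with a ratio of 4.33. Igf2bp2 was read in 100%, 99.2% and 84.2% of newborn cTEC, mTEClo and mTEChi, and in 75.3%, 28.3% and 40.8% of the adult cells of the same sorts.

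Igf2bp3, its relative, differed less between the ages and had the smallest ratio of the 10 in cTEC. The newborn cTEC batches stood at 33.3, 23.3, 38.8, 28.5 and 43.4 CPM against 19.5 in the adult pool, a ratio of 1.70. The newborn mTEClo batches stood at 30.2, 24.5, 34.3, 27.1 and 26.7 CPM against 16.7, 5.14 and 5.56 in the adult pools, and the ratio of 3.03 grew to a log2 ratio of 2.37 without adult mTEClo pool 1. The newborn mTEChi level of 15.2 CPM lay above the adult pools at 11.2, 4.76, 7.89 and 7.81, a ratio of 1.92, although the adult batches reached 19.5 and 0 of the 5 newborn batches lay above them all. Adult cells often held it too: it was read in 77.9%, 51.8% and 47.9% of adult cTEC, mTEClo and mTEChi.

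Igf2bp1 had the opposite order of sorts and depended on single batches. It stood at 79.9, 1.51, 3.31, 7.12 and 27.2 CPM in the newborn mTEChi batches and at 8.40, 5.63, 2.5 and 2.35 in the adult mTEChi pools, which overlapped. The pooled ratio was 6.38 (30.1 against 4.72 ± 2.88 CPM, SD, n = 4), a log2 ratio of 2.67 that was 1.10 without batch 16, and the top 5% of newborn mTEChi held 95.2% of its reads. In newborn mTEClo it was at 0 CPM in 3 of the 5 batches and at 2.91 and 3.59 in the others. Both ages of cTEC stood under 1 CPM.

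Hmga2 separated the ages most fully in cTEC and mTEClo. The newborn mTEClo batches stood at 33.8, 48.6, 45, 43.5 and 33.7 CPM and the newborn cTEC batches at 23.3, 29.5, 11.4, 29.7 and 16.5. The adult mTEClo pools stood at 0.0267, 0 and 0.0426 CPM and the adult cTEC pool held 0 reads. The newborn mTEClo pool was 1801.8-fold above the adult mean, a ratio that rests on 5 adult reads, and newborn cTEC was at least 501.6-fold above the floor of 3 reads in the adult pool. Hmga2 was read in 71.9% of newborn cTEC and 77.4% of newborn mTEClo, against 0 of 77 adult cTEC, which allows a share of up to 3.9%, and 1.4% of adult mTEClo.

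In newborn mTEChi Hmga2 was low, at 1.01, 4.97, 0.689, 0.111 and 1.22 CPM in the batches against 0.461, 0, 0.259 and 0.0206 in the adult pools. The ranges overlapped, and the ratio was 8.6 on the pooled level of 1.59 CPM. It was read in 10.5% of newborn mTEChi, whose top 5% of cells held 94.2% of the reads, against 24.3% in mTEClo. The log2 ratio of 3.10 became 2.10 without batch 17 and 4.10 without adult mTEChi pool 1.

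Lin28b was a gene of mTEChi at both ages, and in that sort the newborn pool lay below all 4 adult pools. The newborn mTEChi batches stood at 11.5, 26.4, 29.2, 11.8 and 7.51 CPM and the adult pools at 22.3, 35.3, 23.4 and 43.2. The batches overlapped the pools, and the adult mean of 31.1 ± 9.98 CPM (SD, n = 4) was 1.9-fold above the pooled newborn level of 16.3. The share of cells with a read was 37.4% in the newborn and 40.6% in the adult. Newborn cTEC and mTEClo stood at 1.41 and 1.34 CPM, and each value rested mainly on 1 batch: without batch 19 the log2 ratio to adult cTEC was 0.39 in place of 2.35, and without batch 20 that to adult mTEClo was -0.02 in place of 1.5. In newborn mTEChi 79.4% of its reads came from the cells rich in mesenchymal genes. Without such cells at either age the log2 ratio was -2.19 in place of -0.93. In newborn mTEClo 65.4% of its reads came from the 29% of cells rich in these genes. Its close relative Lin28a stood at 0.558 CPM in newborn mTEChi and 1.67 in adult mTEChi.

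Dlk1 was higher in the newborn where the adult cells hold little of it. The newborn cTEC batches stood at 1.08, 6.17, 0.375, 3.29 and 3.36 CPM against 0 reads in adult cTEC, at least 60.0-fold above the floor of 3 reads, and it was read in 20.9% of newborn cTEC against 0 of 77 adult cTEC. The newborn mTEClo batches stood at 10.3, 0.243, 14.2, 31.5 and 16.5 CPM against 0.204, 0.0167 and 3.13 in the adult pools, with 1 newborn batch inside the adult range. The ratio in mTEClo was 13.5, and without adult mTEClo pool 3 the log2 ratio was 7.10 in place of 3.76. The newborn mTEChi batches, at 9.98, 31.5, 64.7, 84.4 and 83.2 CPM, overlapped the adult pools, at 39.1, 0.250, 31.8 and 58, with a ratio of 1.54. In newborn cTEC 58.9% of the Dlk1 reads came from the 15.1% of cells with mesenchymal genes at 100 CPM or more.

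Meg3 was low in every adult sort. Single adult wild-type batches reached 4.66 CPM in mTEClo and 4.26 in mTEChi. The Aire-KO pools stood at 2.77 CPM in mTEClo and 1.59 in mTEChi. The newborn mTEClo batches stood at 12.8, 25.8, 65.7, 22.2 and 29.1 CPM against 1.49, 0.150 and 0 in the adult pools, and the newborn mTEChi batches at 13.2, 12.4, 18.6, 1.28 and 13.6 against 1.5, 0, 0.230 and 0.0412. The newborn cTEC batches stood at 8.52, 22.5, 1.03, 3.25 and 0.611 CPM against 0.0154 in the adult pool. The ratios were 54.6 in mTEClo, 26.4 in mTEChi and 484.4 in cTEC, where a single adult read gave an exact interval of 86.7 to 19158.3 that covers counting error only. Without adult pool 1 the log2 ratio was 8.64 in mTEClo, from 5.77, and 7.02 in mTEChi, from 4.72, and the cTEC value was 8.16, from 8.92, without batch 17. The reads sat in few cells, with 80.2% to 95.2% in the top 5% of cells of each newborn sort, so that Meg3 was read in 21.6%, 31.5% and 15.8% of newborn cTEC, mTEClo and mTEChi.

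Peg3 was also high in the adult mTEClo pools. It stood at 159.4, 257.7 and 150.4 CPM in these pools against 335.2, 329.8, 286.1, 189.9 and 215.8 in the newborn mTEClo batches, which overlapped, with a ratio of 1.38. The top 5% of cells held 55.8% of the Peg3 reads of adult mTEClo and 23.9% of those of newborn mTEClo. The median cell stood at 9.78 CPM in adult and 162.4 in newborn mTEClo. In cTEC the newborn batches, at 255.3, 244.7, 175.6, 158.4 and 246.9 CPM, all lay above the adult pool at 33.1, a ratio of 6.74. In mTEChi the newborn batches, at 58.2, 97.8, 187.3 and 232.9 and the fifth between the middle pair, lay above the adult pools, at 52.3, 12.4, 52.4 and 39.7, a ratio of 3.85. The adult batches reached 97.3 CPM in batch 41 and 210.5 in 5 cells of batch 3, so that only 1 of the 5 newborn batches lay above every adult batch. Peg3 was read in 98.6%, 98.4% and 87.1% of newborn cTEC, mTEClo and mTEChi and in 54.5%, 77% and 59% of the adult cells. In newborn mTEChi 73.3% of its reads came from the cells with mesenchymal genes at 100 CPM or more, and without such cells the log2 ratio was 1.16 in place of 1.95.

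**Figure D2:**
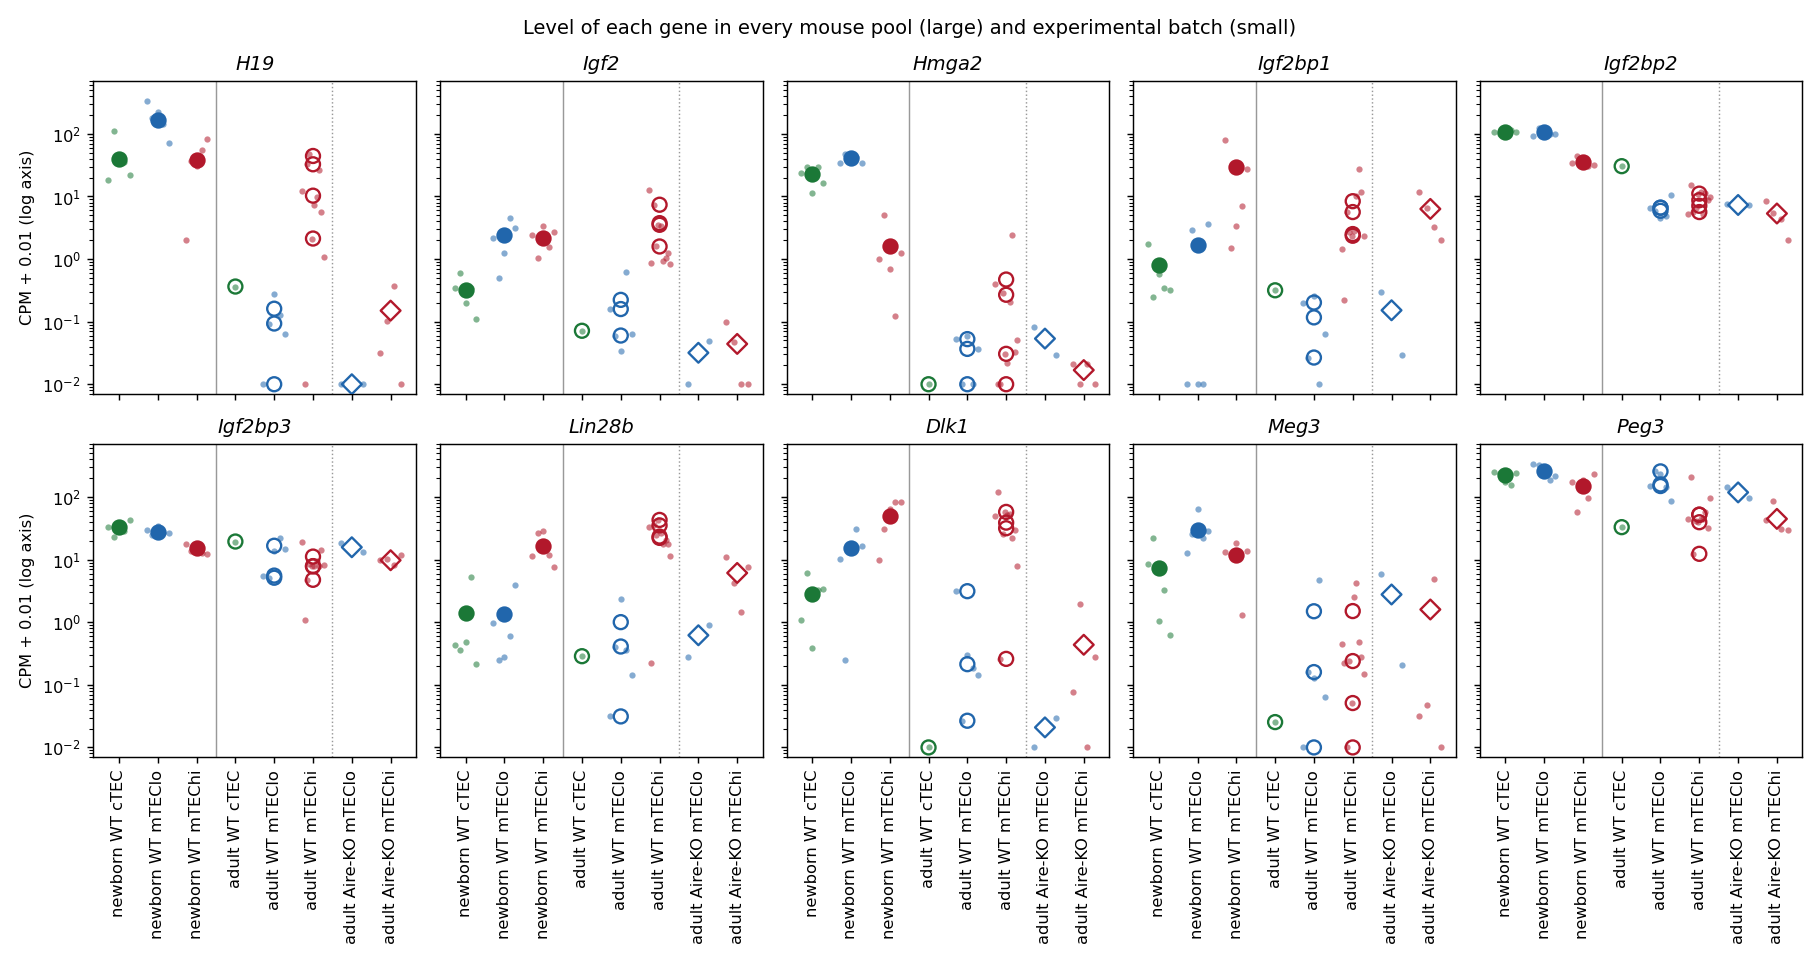
Level of each gene by group (CPM + 0.01, log axis), with pools as large symbols (filled for newborn, open for adult, diamonds for Aire-KO) and batches as small points; cTEC are green, mTEClo blue and mTEChi red. Igf2bp2, H19 and Hmga2 of newborn mTEClo lie above every adult mTEClo pool, whereas Lin28b and Igf2 of mTEChi overlap between the ages.

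Set per length, the order of the 10 genes differed between the newborn sorts. In cTEC the first were Peg3, H19 and Igf2bp2, at 16.7, 16.3 and 14.6 CPM per kilobase, which lie close together. In mTEClo H19 (67.4) stood well above Peg3 (19.6), Igf2bp2 (14.4) and Hmga2 (6.14). In mTEChi the first were H19 (15.3), Peg3 (11.3) and Dlk1 (8.80), and Hmga2 (0.235) came last.

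**Figure D3:**
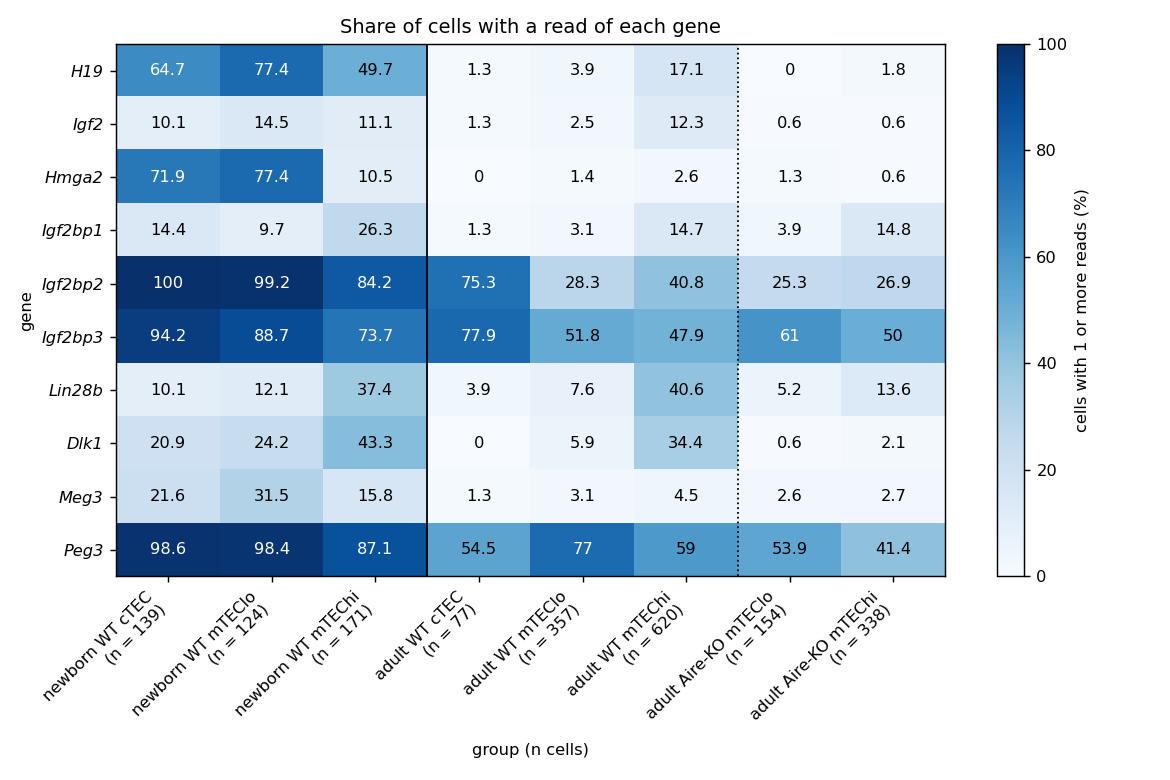
Percent of cells with at least 1 read of each gene in each of the 8 groups. Igf2bp2 and Peg3 were read in nearly all newborn cTEC and mTEClo, Hmga2 in 71.9% and 77.4% of them, and Hmga2 in 0% to 2.6% of the adult cells.

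A cell of newborn cTEC, mTEClo and mTEChi held a median of 5, 5 and 4 of the 10 genes, against 2, 2 and 3 in the adult wild-type sorts and 1 in each Aire-KO sort. With every cell thinned to the same number of reads the medians were 4, 5 and 4 in the newborn and 2, 1 and 2 in the adult. In newborn mTEClo, H19 and Hmga2 were read together in 65.3% of cells, and Hmga2 was read in 84.4% of the cells with H19 and in 53.6% of those without. Across newborn mTEClo, Spearman's rho of their levels was 0.54, and that of Hmga2 with Igf2bp2 was 0.51. In newborn cTEC and mTEChi the first pair had a rho of 0.32 and 0.00 and the second of 0.03 and 0.05. Of the imprinted neighbours, rho of H19 with Igf2 was 0.35, 0.34 and 0.18 in newborn cTEC, mTEClo and mTEChi, and that of Dlk1 with Meg3 was 0.08, 0.27 and -0.03. Within newborn mTEClo, Hmga2 had a rho of 0.49 with the summed cTEC genes and -0.42 with the mTEC genes. In newborn cTEC these values were -0.18 and -0.57, and in newborn mTEChi 0.1 and -0.13. H19 had a rho of 0.37 in newborn cTEC, 0.33 in mTEClo and -0.03 in mTEChi with the summed genes of cycling cells. Cells of 1 sort share batches and depth, and these values describe them with no test.

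**Figure D4:**
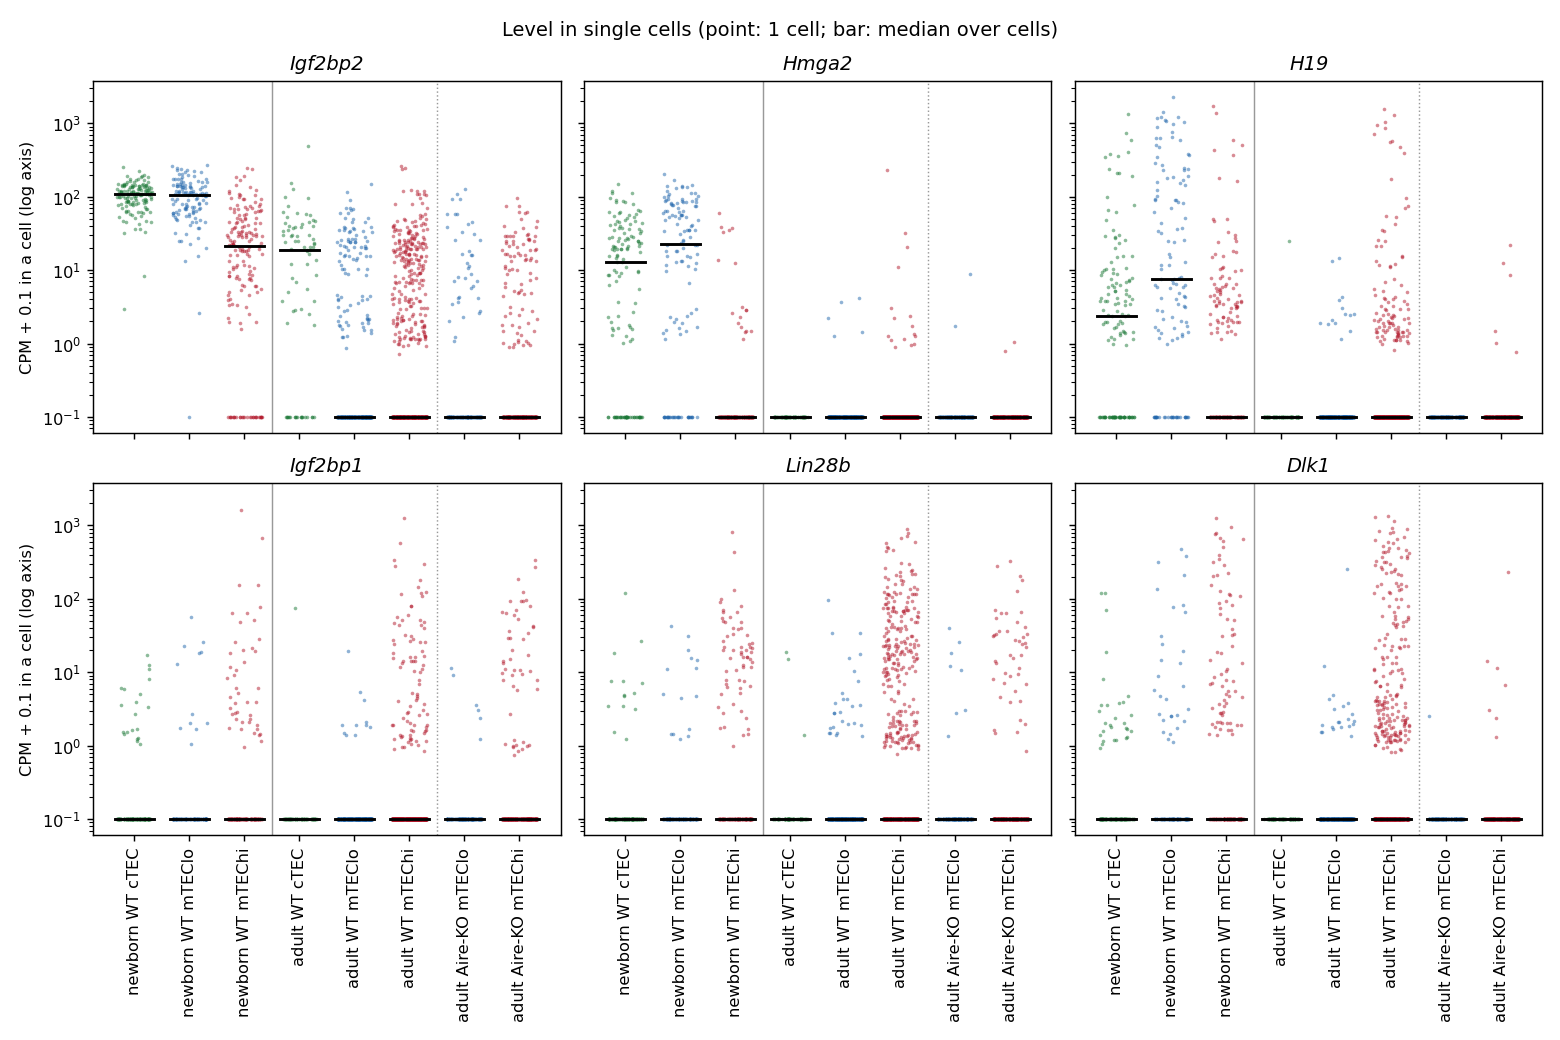
Level in each cell (CPM + 0.1, log axis) of Igf2bp2, Hmga2, H19, Igf2bp1, Lin28b and Dlk1 by group, with bars at the median. The median of Igf2bp2 was 110.2 CPM in newborn cTEC and 106.1 in newborn mTEClo against 18.8 in adult cTEC and 0 in adult mTEClo, and 1 newborn mTEClo cell reached 2274.3 CPM of H19.

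The 3 newborn sorts came from the same batches and were compared by edgeR's quasi-likelihood test with the batch as a block, over 23349 genes, where a call needs an adjusted p under 0.05 and a 2-fold change. In mTEChi against cTEC, 7 of the 10 genes were called, beside 37.1% of all genes, 4 of them higher in mTEChi beside 23.8% and 3 lower beside 13.3%. The choice of the genes used these newborn levels, and nothing is read from the counts of them called between newborn sorts. Lin28b (log2 fold change 4.51 ± 1.20 SE), Igf2bp1 (4.58 ± 1.46), Dlk1 (4.04 ± 1.01) and Igf2 (2.68 ± 0.69) were higher in mTEChi, with adjusted p = 0.00925, 0.0217, 0.00668 and 0.0076 by edgeR. Hmga2 (-4.19 ± 0.62), Igf2bp2 (-1.69 ± 0.10) and Igf2bp3 (-1.20 ± 0.16) were higher in cTEC, with adjusted p = 0.000304, 2.2e-06 and 0.000138. The call of Igf2bp1 was lost without batch 16 or batch 20. H19 (0.00), Meg3 (0.87) and Peg3 (-0.62) passed no threshold.

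In mTEChi against mTEClo, 3 of the 10 genes were called by the same test, beside 31.9% of all genes, 1 of them higher in mTEChi beside 19.9% and 2 lower beside 12%. Hmga2 (-4.99 ± 0.63, adjusted p = 0.000151) and Igf2bp2 (-1.47 ± 0.10, adjusted p = 5.21e-06) were higher in mTEClo, and Lin28b (4.39 ± 1.22, adjusted p = 0.013) was higher in mTEChi, a call that was lost without batch 17 or batch 18. Igf2bp3 (-0.83 ± 0.15, adjusted p = 0.00137) and Peg3 (-0.81 ± 0.31, adjusted p = 0.0498) differed by less than 2-fold. H19 (-2.29, adjusted p = 0.0582), Igf2bp1 (3.96, 0.0597) and Dlk1 (1.92, 0.104) did not pass by edgeR. DESeq2 called all 3, beside 35.9% of all genes, with adjusted p = 0.00472, 0.00131 and 0.0347, and edgeR without the batch term called H19 and Igf2bp1, beside 31.2%.

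In cTEC against mTEClo none of the 10 genes was called by edgeR, beside 3.66% of all genes, and 4 of the 10 had an unadjusted p under 0.05. Igf2 had a log2 fold change of -2.51 ± 0.70 with adjusted p = 0.0527. H19 (-2.29, adjusted p = 0.133), Meg3 (-2.34, 0.167) and Dlk1 (-2.12, 0.241) had values of like size. DESeq2 called Dlk1, H19, Igf2 and Meg3 as higher in mTEClo, beside 8.3% of all genes.

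In the adult wild type, mTEChi (4 pools) were compared with mTEClo (3 pools) over 39971 genes. The fit held the mTEC pools of all groups and no cTEC pool. H19 (7.73 ± 1.38 on the log2 scale, adjusted p = 0.013), Lin28b (5.73 ± 1.08, 0.0153), Igf2bp1 (5.28 ± 0.95, 0.0132) and Igf2 (4.60 ± 0.89, 0.0167) were higher in mTEChi by edgeR, and Peg3 (-2.45 ± 0.45, adjusted p = 0.0143) was higher in mTEClo. These were 5 of the 10 genes, beside 11.7% of all genes, 4 higher beside 7.54% and 1 lower beside 4.13%. The choice of the genes used the adult levels tested here, and nothing is read from these counts. Dlk1 (4.74 ± 1.83, adjusted p = 0.111) and Hmga2 (2.96 ± 1.26, 0.136) did not pass. With batches as units both were called, with adjusted p = 0.00118 and 0.0143 by edgeR, beside 34.3% of all genes, and DESeq2 called Dlk1 (0.00748), beside 24.9%. The calls of H19, Igf2, Lin28b and Peg3 were lost without adult mTEClo pool 2, at adjusted p = 0.0545, 0.0573, 0.0626 and 0.0501, and that of Igf2 also without pool 3.

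In Aire-KO mTEChi, H19 stood at 0.140 CPM, Igf2 at 0.0341, Dlk1 at 0.427 and Lin28b at 6.13, of which H19, Igf2 and Lin28b lay below all 4 wild-type pools. Igf2bp1, Igf2bp2, Igf2bp3 and Peg3, at 6.32, 5.34, 9.79 and 44.9 CPM, differed from the wild-type mean by less than 2-fold. Meg3 stood at 1.59 CPM against a wild-type mean of 0.443, above all 4 pools, and Hmga2 at 0.00683 against 0.185. The wild-type pool of the same age, 5 weeks, held 32.7 CPM of H19, 7.38 of Igf2, 35.3 of Lin28b and 0.250 of Dlk1, but only 12 cells. With 1 Aire-KO pool, edgeR called 0 of 39971 genes, with 4.37% at an unadjusted p under 0.05, and the values were -7.17 ± 2.2 for H19 and -6.71 ± 1.66 for Igf2, both with adjusted p = 0.925. DESeq2 called H19 (adjusted p = 0.00138) and Igf2 (5.3e-07), beside 1.92% of all genes, and edgeR with batches as units called both and also Dlk1 (0.0161) and Hmga2 (0.0312), beside 4.63%. In Aire-KO mTEClo edgeR also called 0 genes, with 3.55% at an unadjusted p under 0.05 and 0.706% called by DESeq2, and H19 was read in 0% of cells, a count that allows a share of up to 1.95%. The test of whether the Aire-KO difference was unlike in the 2 sorts called 0 genes by edgeR, with 3.44% at an unadjusted p under 0.05.

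**Figure D5:**
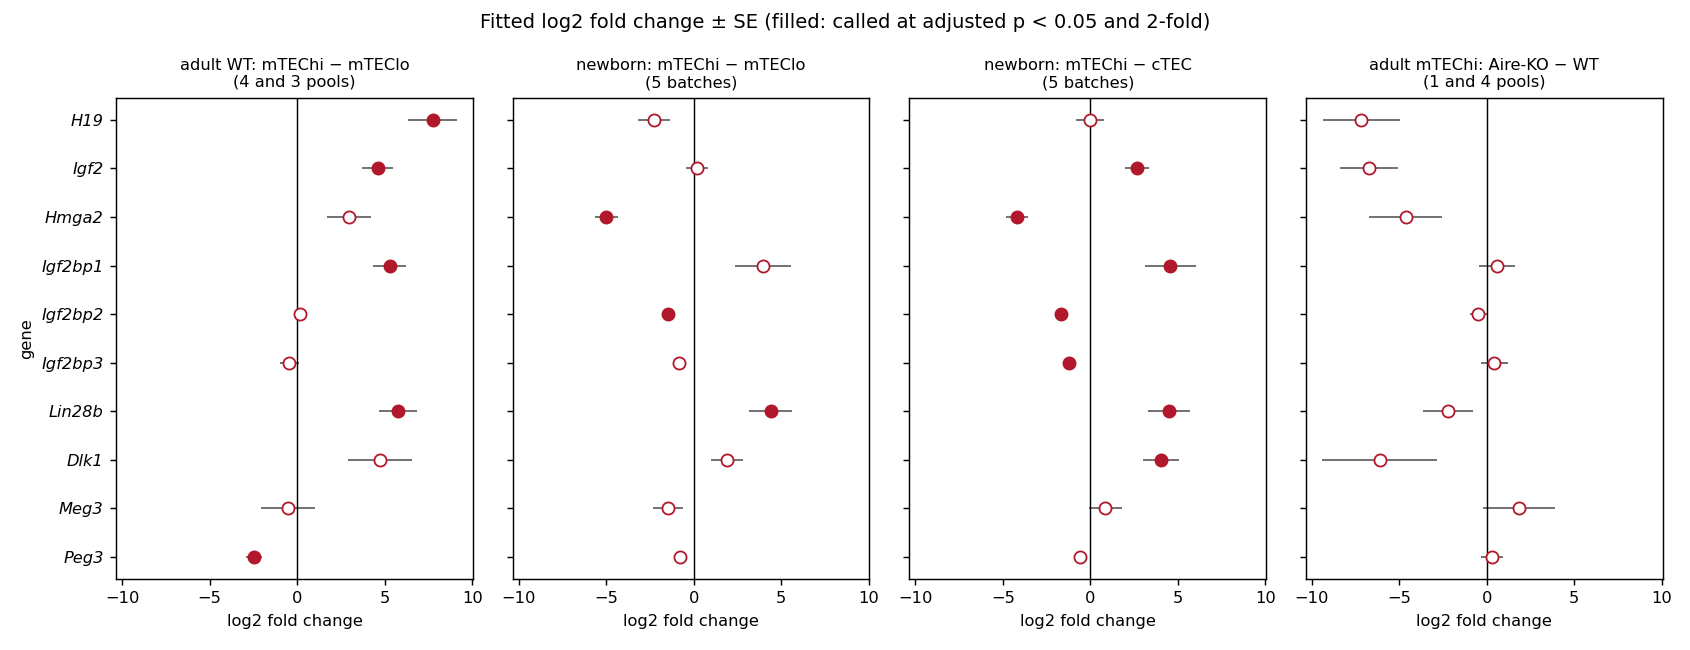
Log2 fold change ± SE of the 10 genes in newborn mTEChi against mTEClo and against cTEC. The other panels show adult wild-type mTEChi against mTEClo and adult Aire-KO against wild-type mTEChi. Filled symbols are called by edgeR (adjusted p under 0.05 and at least 2-fold). Lin28b lies to the mTEChi side in both ages, and Hmga2 lies to the cTEC and mTEClo side in the newborn.

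The 13 pools were ranked for the genes whose level followed each of the 10 most closely by Pearson's r of log2 levels, over 15524 genes. Lin28b (Alpk3, r = 0.984) and Igf2 (Trpm8, r = 0.987) had the closest matches. Hmga2 was followed by Zfp648 (r = 0.958) and Ccdc102a (0.949), Igf2bp2 by Acot2 (0.967), H19 by Ticrr (0.942), Dlk1 by Mt3 (0.967), and Meg3 by Grb10 (0.903), another imprinted gene. Among the 10 themselves, Hmga2 and Igf2bp2 had r = 0.89, Igf2 and Lin28b 0.82, H19 and Igf2 0.66 and Dlk1 and Meg3 0.28. The pools share batches and sorts, and r is a description.

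Other genes of the same systems were read from 4 lists. Newborn against adult was tested there by edgeR, which called no list gene at the level of pools, where all genes had 0 calls as well, with 9.93% at an unadjusted p under 0.05 in mTEClo and 2.01% in mTEChi. DESeq2 called 4.61% and 0.108%. The batches of a pool are not known to be different animals, so p-values with batches as units measure the spread between batches only. With batches as units, more genes passed in mTEClo than over pools, and each batch holds 1 age only. There the imprinted list had 8 genes higher and 4 lower of 38, the IGF list 3 and 4 of 21, the LIN28 and let-7 list 4 and 0 of 19, and the list of other fetal genes 5 and 1 of 15, beside 6.2% and 7.81% of all genes. Over pools the 4 lists had medians of 0.62, 0.66, 0.17 and 1.52 on the log2 scale, against 0.00 for all genes. The lists were chosen with earlier results of these data known, so nothing is read from their counts or medians, here or in mTEChi.

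With batches as units, the imprinted genes called higher in newborn mTEClo included the neighbours of Dlk1 and Meg3. Rtl1 stood at 6.29 CPM against 0.0404 in the adult and Rian at 24.5 against 0.784, with adjusted p = 0.0154 and 0.0073 by edgeR with batches as units, and Mirg passed as well (adjusted p = 0.0365). Usp29, the neighbour of Peg3, also passed (adjusted p = 0.043). Mirg and Usp29 were named for their position after their values were seen. Dlk1, Meg3 and Peg3 were themselves chosen by their newborn and adult levels. The values of their neighbours in the same contrast are therefore no independent finding. Grb10, an imprinted adaptor of insulin and IGF receptors that stands in 2 of the lists, was at 347.6 CPM against 80.1 (adjusted p = 0.00208). Kcnq1 (14.6 against 99.3) and Peg13 (25.3 against 104.3) were lower, with adjusted p = 0.0136 and 0.000129.

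Of the IGF list, the 4 genes called lower in newborn mTEClo with batches as units were Igfbp5, Igfbp4, Igf1 and Ins2. The 3 called higher were Grb10, Stc2 and Igfbp1. Igfbp4 and Igfbp1 were named after their values were seen. The p-values of this paragraph measure the spread between batches, which are not known to be different animals. Igfbp5, a secreted IGF-binding protein, stood at 84.7 CPM against 1810.7 (adjusted p = 1.82e-05 by edgeR with batches as units), Igf1 at 0.824 against 29.7 (2.26e-08), Ins2 at 0.0874 against 45.6 (0.02) and Igfbp4, another binding protein, at 67.8 against 156.8 (0.0333). Stc2 stood at 16.1 against 4.1 (0.0108), and the binding protein Igfbp1 passed as well (0.0468). Of the genes around LIN28B and let-7, Ccnd2, a cyclin, stood at 760.1 against 113.6 (7.99e-07), Mycn at 5.16 against 0.263 (0.026) and Hmga1, the relative of Hmga2, at 15.1 against 3.95 (0.000678). Among other fetal genes, Gpc3, a glypican of the cell surface, stood at 37.2 against 4.14 (0.00707) and Crabp2, a retinoic acid carrier, at 35.7 against 3.29 (0.00394). In the same comparison the genes of cycling cells summed to 879.9 CPM in newborn mTEClo against 10.9 to 20.6 in the adult wild-type pools. They were higher for 10 of 10 list members, and the cTEC genes for 8 of 9. The part of either in the differences of the 4 lists and of the 10 genes was not tested.

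In mTEChi fewer genes passed with batches as units, where p-values again measure the spread between batches only. The imprinted list had 2 higher and 1 lower, the IGF list 0, the LIN28 and let-7 list 2 higher and the other fetal genes 1 higher and 1 lower, beside 0.713% of all genes higher and 0.539% lower. Zim1, an imprinted neighbour of Peg3, stood at 33.2 CPM against 1.7 (adjusted p = 0.0324 by edgeR) and Zrsr1 at 3.54 against 9.85 (0.00162). Since Peg3 was chosen by its newborn and adult levels, the value of Zim1 is no independent finding. Hmga1 stood at 9.03 against 4.48 (0.0136), Arid3a at 41.3 against 17.8 (0.0379) and Fbn2, a fibrillin, at 60.8 against 7.48 (0.00153).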

How the data were processed

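Single thymic epithelial cells were sorted and sequenced by RamDA-seq. The authors trimmed reads with fastp 0.20.0, aligned them to mm10 with STAR 2.7.3a, removed alignments of low quality and duplicates, and deposited counts per Ensembl gene from htseq-count 0.11.2 without strand, for cells with more than 200000 reads. No molecular identifiers were used, so intervals and floors cover counting error only. A deposited normalised table was not used here. Counts of cells sharing group, age and sex were summed to 13 pools, and those sharing group and batch to batches. Levels are CPM of the raw totals; ratios set the newborn pool against the mean of the adult wild-type pools, with a floor of 3 reads over a group at 0. Tests used edgeR 4.0.16 (quasi-likelihood, TMM, Benjamini-Hochberg) in R 4.3.3, with filterByExpr; DESeq2 1.42.0 and batches as units were alternatives. On simulated data, 16-fold changes were recovered in 66% (adult mTEChi against mTEClo), 39% (Aire-KO mTEChi) and 93% to 95% (newborn sorts) of genes. The study itself tested cells. The 10 genes, the lists and the named genes (those called, up to 3 a direction in each list) were chosen with earlier results of these data known. Of the symbols in the LIN28 and let-7 list, 4 were unmatched. Gene coordinates and 3′ UTRs come from GENCODE M21 and microRNAs from RefSeq, both on GRCm38; the counts used Ensembl release 99.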

Additional observations from a re-analysis of the deposited data

Results flagged for a closer look

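Of 40 sets of 4 or 5 samples of the 10 genes, 6 had a sample that stood apart from the rest of its group by Dixon's test. Its limits flag about 1 in 20 by chance where values are normally distributed. The test was run on CPM, which need not be so distributed, and nothing is read from the number flagged. H19 in newborn cTEC was highest in batch 17, at 110.8 CPM, with a gap of 0.815 of the range. Igf2bp1 in newborn cTEC was highest in batch 16, at 1.72 CPM (gap 0.78 of the range). Hmga2 in newborn mTEChi was highest in batch 17, at 4.97 CPM (0.772). Lin28b was highest in batch 19 in newborn cTEC, at 5.36 CPM (0.949), and in batch 20 in newborn mTEClo, at 4.00 CPM (0.807). Meg3 in adult wild-type mTEChi was highest in pool 1, at 1.5 CPM (0.847).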

How the results depend on the processing

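The share of genes called moved with the unit, the tool and the filter. Adult mTEChi against mTEClo called 11.7% of genes, against 24.9% by DESeq2, 34.3% with batches as units and 4.7% to 13.9% with 1 pool left out, the lowest without adult mTEClo pool 2. Aire-KO against wild type called 0% in mTEChi, against 1.92% by DESeq2 and 4.63% with batches, and 0% in mTEClo, against 0.706%, 0.0704%, 0.00207% without the filter on low counts and 0% to 0.0051% with 1 pool left out. Newborn against adult called 0% in mTEChi, against 0.108% by DESeq2 and 1.25% with batches, and 0% in mTEClo, against 4.61%, 14% and 0% to 1.34% with 1 pool left out, the last without adult mTEClo pool 1. Newborn cTEC against mTEClo called 3.66%, against 8.3% by DESeq2, 1.43% without the filter on low counts and 1.74% to 4.37% with 1 batch left out. Without the filter, more genes were tested and the newborn mTEChi shares were 22.8% against cTEC, from 37.1%, and 19.2% against mTEClo, from 31.9%. Of the 80 pairs of gene and group, 22 were read in at least 50% of cells, and 14 at 5 reads or more.

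Direction turned for small values of the 10 genes, and the cause was not tested. The log2 newborn ratio of Igf2bp1 in cTEC was -0.61 as a mean over cells and -0.22 with cells thinned; that of Lin28b in mTEClo was -0.06 without cells rich in mesenchymal genes and -0.02 to 2.66 with 1 sample left out. In Aire-KO mTEChi, Igf2bp1 (-0.06) and Peg3 (-0.21) turned with batches as units, and in Aire-KO mTEClo so did Lin28b (-0.22). With 1 pool left out, Aire-KO mTEClo ran from -0.27 to 1.58 for Lin28b and -0.05 to 1.03 for Igf2bp1, and adult mTEChi against mTEClo from -0.04 to 0.36 for Igf2bp2, -0.78 to 0.44 for Igf2bp3 and -2.6 to 2.51 for Meg3. In newborn cTEC against mTEClo, Igf2bp1 was 0.04 by DESeq2 and Lin28b 0.33 without the batch term, and with 1 batch left out they ran from -1.46 to 1.08 and -1.39 to 1.24. In newborn mTEChi against cTEC, H19 was 0.09 by DESeq2, 0.09 with its size factors in edgeR, 0.04 without the filter and -0.73 to 0.49 with 1 batch left out. Igf2 in newborn mTEChi against mTEClo ran from -0.22 to 0.58. No paired analysis was possible because the replicate numbers of the pools do not tie samples of different groups; newborn tests kept the batch as a block.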

Other observations

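Other genes of the lists also differed between the newborn sorts by edgeR with the batch as a block. The imprinted list had 7 genes higher and 10 lower in mTEChi than in mTEClo, the IGF list 9 and 5, the LIN28 and let-7 list 3 and 1 and the other fetal genes 0 and 5, beside 19.9% of all genes higher and 12% lower. Against cTEC the counts were 9 and 11, 10 and 6, 3 and 2, and 2 and 6, beside 23.8% and 13.3%. In adult mTEChi against mTEClo the imprinted list had 2 genes higher and 5 lower, the IGF list 5 and 3, the LIN28 and let-7 list 3 and 1 and the other fetal genes 0 and 1, beside 7.54% and 4.13% of all genes. Trim71, which holds 4 of the sites searched, was higher in adult mTEChi (log2 fold change 5.95, adjusted p = 0.0363 by edgeR). So were Mycn (4.59, 0.0299) and Ccnd2 (2.14, 0.00464), whereas Dicer1, which cuts microRNA precursors, was lower (-1.14, 0.00973).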
